A study of Rattus norvegicus with 8 samples.

Results

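Transcripts of the insulin-like growth factor (IGF) system were followed in the hippocampus and hypothalamus of male Sprague Dawley rats. The genes, 10 in all, were picked by symbol: the ligand genes Igf1 and Igf2, the receptor genes Igf1r and Igf2r, and the binding protein genes Igfbp2, Igfbp3, Igfbp4, Igfbp5, Igfbp6 and Igfbp7. They are 10 of 16514 gene symbols listed for either tissue. All 10 were listed for hypothalamus and 9 for hippocampus, where Igf2r has no entry in the table used here. The animals were 2 months old at the start and drank water with 15% fructose during 6 weeks on an omega-3 fatty acid diet, labelled as fructose and DHA (docosahexaenoic acid). Both groups shared this treatment: there were 4 hippocampus and 4 hypothalamus libraries, and other diet arms were not analysed here, so no effect of fructose or DHA is described. The labels do not say whether a library came from 1 animal, and the spread below is that between libraries, which may be technical.

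IGF1 and IGF2 are small secreted growth factors related to insulin. Both signal through the IGF1 receptor, a tyrosine kinase, whereas the IGF2 receptor carries lysosomal enzymes tagged with mannose 6-phosphate and takes up IGF2 for breakdown. The binding proteins hold the ligands outside cells and alter their access to the receptor; IGFBP7 binds them more weakly than the others. In the adult rodent brain Igf2 is known mainly from the choroid plexus, which makes cerebrospinal fluid, and from the meninges and vessels, and Igf1 from neurons and glia.

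Levels are FPKM (fragments counted per length of transcript and per size of the library), divided by 1 scaling factor per library. The tissues were deposited in separate tables, so tissue and table cannot be told apart, and levels were set side by side with no p-value. A gene was called higher or lower in hypothalamus when the libraries of the tissues did not overlap and the mean difference was at least 1 on the log2(FPKM + 1) scale, on which low genes differ by less than their true ratio. A gene used by every cell shows what the tables can hold: Gapdh was listed at 6.19 ± 1.66 in hippocampus and 581 ± 125 in hypothalamus (SD, n = 4). In bulk tissue, fewer cells of a type and less RNA per cell cannot be told apart. The number of reads was unknown. The steps between low values gave relative depth among replicates 2, 3 and 4 alone. The FPKM of a single fragment in replicate 2 was 1.35 times that in replicate 3 for hippocampus and 0.931 times for hypothalamus.

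Hippocampus replicates 3 and 4 stood apart from the other libraries by genes of the choroid plexus. The 13 such markers listed in both tables summed to 135 and 216 in hippocampus replicates 1 and 2, to 7910 and 5833 in replicates 3 and 4, and to 140 to 224 in hypothalamus. Ttr, encoding transthyretin, was at 38.7 and 37.5, then at 6638 and 4990. Enpp2, encoding autotaxin, was at 63.2 and 126, then at 882 and 604. Of the 12 markers compared, none was called between the tissues. Otx2, a choroid plexus regulator, was listed at 0 in all 8 libraries, as were Col1a2 and Npy, so a 0 in these tables is not read as missing expression. The tissue labels were borne out by neuron markers: all 12 pallial markers were lower in hypothalamus and all 15 hypothalamic markers compared were higher. Over all genes compared, 13.4% were lower and 13.3% higher.

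Promoter windows of the genes that the results turn on are printed from RefSeq (rat build GRCr8), from 250 bases before a start to 50 after it. The deposited values carry no coordinates, so which start the libraries used was not determined. Igf2 has 2 windows and Igfbp2 has 1, shown because these genes moved together from library to library; the Igfbp4 window is shown because Igfbp4 alone was called lower in hypothalamus. Capitals mark GGGCGG or CCGCCC (the GC box on either strand), TATAAA or TTTATA, and CCAAT or ATTGG. The first Igf2 window lies at chr1:207250426-207250725 and the second at chr1:207253931-207254230, both on the minus strand. The Igfbp2 window is at chr9:81864561-81864860 and that of Igfbp4 at chr10:84491221-84491520, both on the plus strand.
Igf2, first window: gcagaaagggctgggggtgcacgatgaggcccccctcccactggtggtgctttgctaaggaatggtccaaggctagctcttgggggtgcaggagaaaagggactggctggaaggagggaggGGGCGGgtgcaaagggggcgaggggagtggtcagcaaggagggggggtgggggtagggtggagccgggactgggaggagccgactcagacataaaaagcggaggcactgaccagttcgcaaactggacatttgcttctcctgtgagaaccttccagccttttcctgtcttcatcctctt
Igf2, second window: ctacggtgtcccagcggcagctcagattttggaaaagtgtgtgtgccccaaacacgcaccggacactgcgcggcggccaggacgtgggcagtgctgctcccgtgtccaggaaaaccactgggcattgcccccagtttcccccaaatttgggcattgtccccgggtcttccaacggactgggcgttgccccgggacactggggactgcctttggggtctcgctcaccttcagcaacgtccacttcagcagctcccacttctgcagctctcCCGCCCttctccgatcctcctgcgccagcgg
Igfbp2: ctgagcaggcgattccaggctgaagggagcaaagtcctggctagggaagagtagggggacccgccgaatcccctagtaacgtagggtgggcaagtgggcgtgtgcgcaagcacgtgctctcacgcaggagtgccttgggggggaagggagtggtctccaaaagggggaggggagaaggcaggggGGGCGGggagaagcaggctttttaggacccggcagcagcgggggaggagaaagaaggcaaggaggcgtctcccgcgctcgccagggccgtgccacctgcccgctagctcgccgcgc
Igfbp4: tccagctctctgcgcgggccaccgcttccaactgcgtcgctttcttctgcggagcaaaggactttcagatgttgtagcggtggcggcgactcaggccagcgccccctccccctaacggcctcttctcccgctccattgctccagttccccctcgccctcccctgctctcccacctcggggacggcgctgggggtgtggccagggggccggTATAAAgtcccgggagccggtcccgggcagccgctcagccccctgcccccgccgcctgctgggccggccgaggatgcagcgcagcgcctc
Both Igf2 windows and the Igfbp2 window held 1 GC box, a motif found in 33.1% of 33469 windows of 300 bases. The Igfbp4 window held a TATA match that begins 40 bases before the start, present in 14.2% of windows. CCAAT in either orientation occurs in 37.5% of windows and in none of the 11 windows of these 10 genes. CpG counts were 7 and 19 for Igf2, 20 for Igfbp2 and 27 for Igfbp4, against a median of 7. A match is a string of letters and no evidence that a factor binds.

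Calls in hypothalamus numbered 4 higher and 1 lower among the 9 genes compared, with 4 not called, whereas 13.3% of all 10554 genes compared were higher and 13.4% lower. Igf1, Igfbp5, Igfbp6 and Igfbp7 were higher and Igfbp4 was lower, so that 3 of the 6 binding protein genes were higher and 1 was lower. Libraries of the tissues did not overlap for 6 of the 9 genes, against 53.4% of all genes compared. The median difference of the 9 genes was 1.43 and that of all genes was -0.04. With values as deposited these medians were 1.61 and 0.18, and 65.3% of all calls were higher in place of 49.8%.

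**Figure D1:**
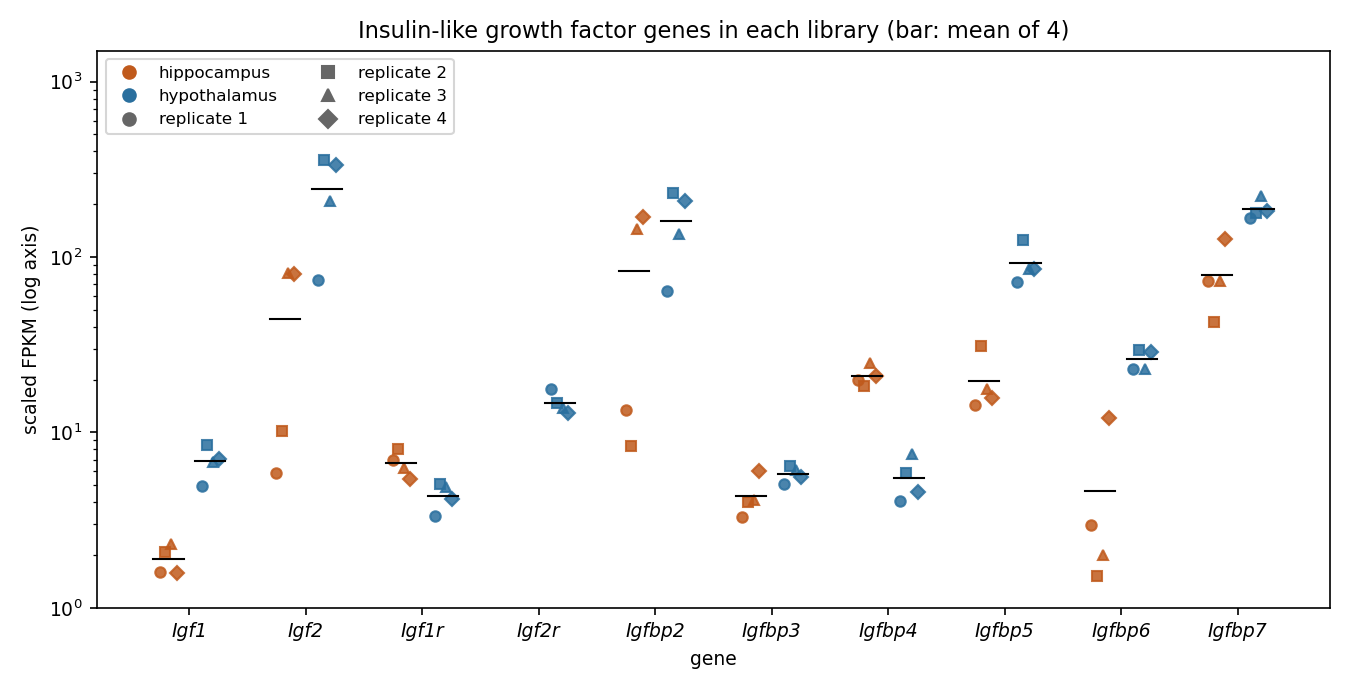
Level of each gene in each library, as scaled FPKM on a log axis, for 4 hippocampus (orange) and 4 hypothalamus (blue) libraries; marker shape gives the replicate and the bar the mean. Igf1, Igfbp5, Igfbp6 and Igfbp7 are higher in every hypothalamus library, Igfbp4 is lower, and hippocampus Igf2 and Igfbp2 fall into a low and a high pair.

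Among the ligands, Igf1 was higher in hypothalamus and Igf2 was the more abundant gene in all 8 libraries. Igf1 was at 1.60, 2.08, 2.32 and 1.57 FPKM in hippocampus replicates 1 to 4 and at 4.95, 8.51, 6.80 and 7.10 in hypothalamus. Every hypothalamus library lay above every hippocampus library, with a difference of 1.43 ± 0.17 (SE). Igf2 was at 5.91, 10.3, 80.9 and 79.6 FPKM in hippocampus and at 74.2, 355, 210 and 336 in hypothalamus. Its groups overlapped only through hypothalamus replicate 1, which lay below hippocampus replicates 3 and 4. The difference of 2.96 ± 1.07 was therefore not called. Leaving out hypothalamus replicate 1, or hippocampus replicates 3 and 4 (chosen after seeing the data), removes the overlap by construction. The difference was then 3.46 and 4.55 ± 0.63. By mean level Igf2 lay above 97.8% of hypothalamus genes at 1 FPKM or more, and above 81.5% in hippocampus.

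Marker levels beside Igf2 were as follows. In hippocampus Igf2 was high in replicates 3 and 4, the libraries with high choroid plexus markers. In hypothalamus it reached 355 while those markers summed to at most 224, near their sum in the hippocampus libraries with the least Igf2. Enpp2 was the largest part of the sum in all of these libraries, so near sums are not near levels of each marker. Some markers were higher in every hypothalamus library than in those hippocampus libraries, and others were not. Within hypothalamus these sums were 140, 224, 147 and 156 in replicates 1 to 4, which is the order of the Igf2 levels. That order rests on few genes of the list. Enpp2 alone was at 90.6, 92.1, 95.6 and 102.8 there, and Ttr at 9.92, 76.9, 9.35 and 15.4. Of the 12 markers compared, 6 were highest in hypothalamus replicate 2 and 6 were not. Markers of meninges and fibroblasts summed to 280 to 496 in hypothalamus and to 57.0 to 114 in hippocampus. Of the 12 compared, 9 were higher in hypothalamus, against 13.3% of all genes compared. Their median difference was 2.39. Of the 14 such genes in both tables, Mgp, a matrix Gla protein gene, and Dcn, encoding decorin, had the highest levels. Mgp was at 164 ± 33.4 against 16.1 ± 7.07, and Dcn at 50.6 ± 15.9 against 25.5 ± 7.25. The Dcn libraries overlapped, and Dcn was not called. In hypothalamus the summed meningeal markers were 280, 496, 417 and 360 in replicates 1 to 4, highest and lowest where Igf2 was, but with replicate 3 above replicate 4, unlike Igf2. The part of these cells in the Igf2 level was not tested.

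**Figure D2:**
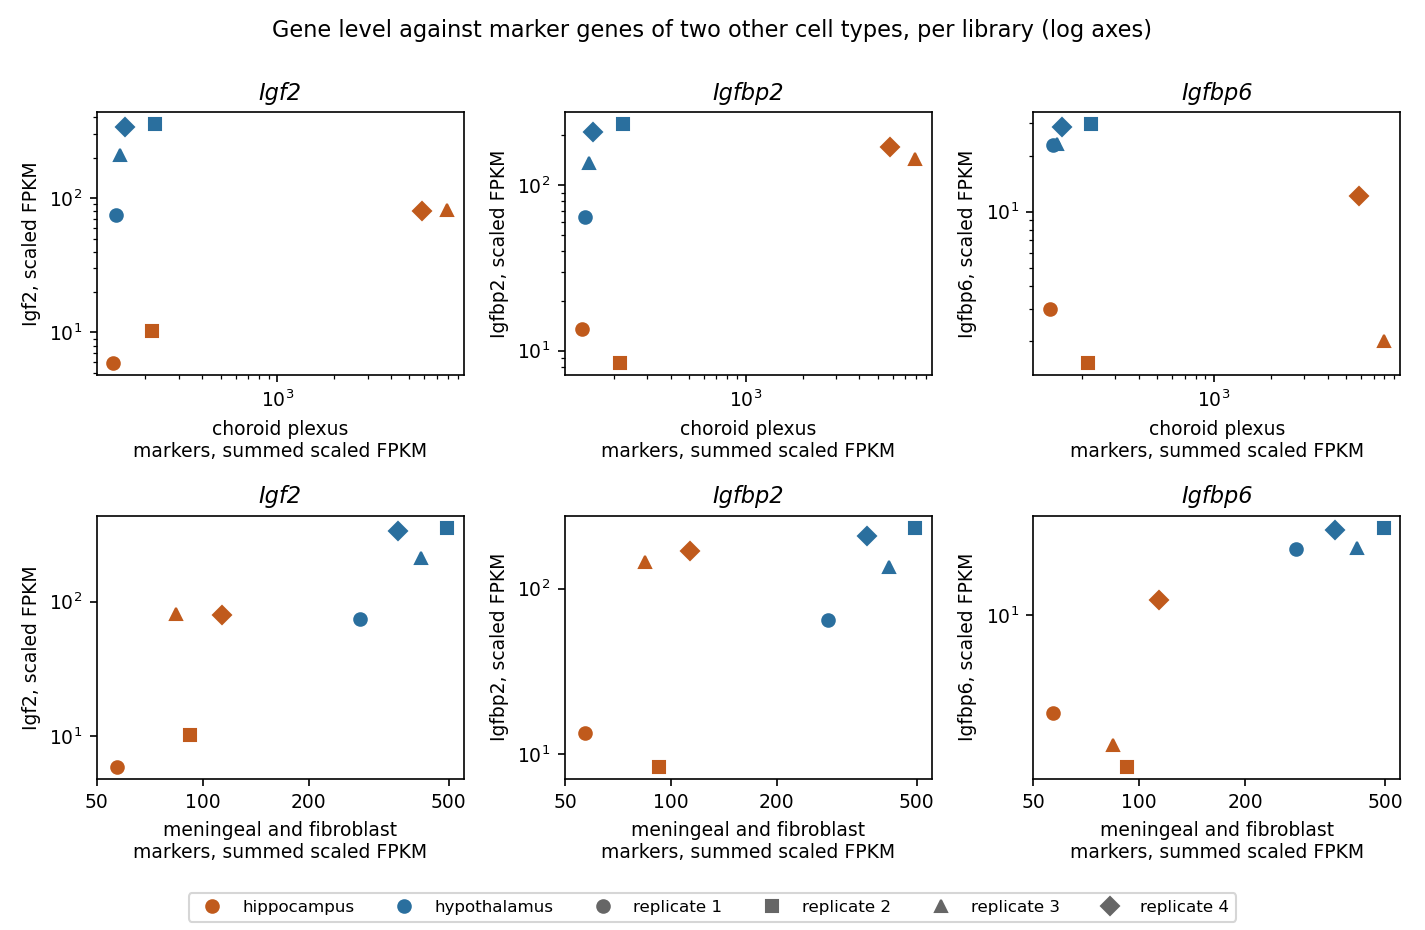
Igf2, Igfbp2 and Igfbp6 in each library against summed markers of choroid plexus (top) and of meninges and fibroblasts (bottom), all as scaled FPKM on log axes; colours give the tissue and shapes the replicate. Hippocampus replicates 3 and 4 stand at 7910 and 5833 on the choroid plexus axis with Igf2 near 80, while hypothalamus libraries reach similar or higher Igf2 at 140 to 224. Enpp2 is the largest part of those hypothalamus sums.

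Igfbp2, the gene of a binding protein abundant in cerebrospinal fluid, followed the same libraries. It was at 13.4, 8.39, 144 and 168 FPKM in hippocampus and at 64.3, 233, 135 and 208 in hypothalamus. The tissues overlapped, and the difference of 1.76 ± 1.17 was not called. Without hippocampus replicates 3 and 4, its 2 high libraries there, it was 3.62 ± 0.52 with no overlap left. Igf2 and Igfbp2 were the most variable of the 10 genes in each tissue. In hippocampus the SD of log2(FPKM + 1) was 1.87 for Igf2 and 2.18 for Igfbp2, larger than for 99.5% and 99.7% of 7977 genes whose tissue mean reached 5 FPKM. In hypothalamus the SD was 1.04 and 0.83, larger than for 99.5% and 99.0% of 8061 genes. Without hypothalamus replicate 1 these fell to 0.42 and 0.41.

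Genes most like Igf2, Igfbp2 and Igfbp6, the 3 with the widest spread, were ranked by Pearson's r of log2 levels centred on each tissue over the 8 libraries. These r describe libraries that share dissection and scaling. In hippocampus those of Igf2 and Igfbp2 rest on a low and a high pair, while for Igfbp6 replicate 4 alone was high. Igf2 and Igfbp2 had r = 0.96 with each other. For Igf2 the first 5 of 7052 genes were Sod3, Fmod, Slc5a3, Rgs3 and Impdh1, with r from 0.97 to 0.98 and from 0.93 to 0.98 without the 2 libraries farthest from the median. Fmod, encoding the matrix proteoglycan fibromodulin, was at 1.60, 1.93, 16.1 and 14.1 FPKM in hippocampus and at 6.44, 40.6, 24.6 and 24.4 in hypothalamus. Sod3 encodes extracellular superoxide dismutase, and Slc5a3 a myo-inositol transporter. For Igfbp2 they were Pkdcc, Slc13a4, Nt5dc2, Cryab and Syngr2, with r from 0.97 to 0.98. Without hippocampus replicates 1 and 2, its low pair, r was from 0.93 to 0.97. Levels stayed centred on tissue means that included the libraries left out. The gap between the low and the high pair thus still enters these r, and leaving libraries out is no check against it. Slc13a4, a sulfate transporter gene, was at 1.70, 2.13, 18.7 and 17.4 in hippocampus and at 34.8, 84.8, 49.6 and 56.7 in hypothalamus.

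Igfbp6, whose product prefers IGF2 to IGF1, separated the tissues although 1 hippocampus library was far above the others. It was at 2.98, 1.53, 2.01 and 12.1 FPKM in hippocampus and at 22.9, 29.6, 23.1 and 28.7 in hypothalamus. The difference was 2.59 ± 0.54, and it was 3.11 without hippocampus replicate 4. That library was also the highest in hippocampus for 9 of the 12 meningeal and fibroblast genes compared, while replicate 2 was the highest for the other 3, Dcn, Lum and Pdgfra. Of the 9, Aldh1a2 and Slc6a13 are given here, chosen after their values were seen. Aldh1a2, a retinoic acid synthesis enzyme, was at 8.11 there against 1.23 to 2.08 in the other hippocampus libraries, and at 21.3 to 39.2 in hypothalamus. Slc6a13, a GABA and taurine transporter, was at 4.26 against 0.86 to 1.43, and at 16.6 to 35.6 in hypothalamus. The genes most like Igfbp6 were Crcp, Lgals1, Lgals3, Camk2g and Ntsr2, with r from 0.95 to 0.97 and from 0.73 to 0.86 without hippocampus replicates 2 and 4. Levels again stayed centred on means that included both, so replicate 4 still enters the lower r. Lgals1, encoding galectin-1, was at 22.7, 10.5, 21.5 and 80.2 in hippocampus and at 126, 203, 163 and 180 in hypothalamus. Replicate 4 was the highest hippocampus library in other marker lists as well, so this is not particular to meningeal genes. It was highest for 6 of 10 ependymal and tanycyte genes, 5 of 11 microglia genes and 4 of 9 mural genes, but for 0 of 12 choroid plexus genes. The share of all genes that were highest there is not given. The part of meningeal or other cells in the Igfbp6 level was not tested.

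Igfbp7 and Igfbp5 were both higher in hypothalamus. Igfbp7, whose product lies in vessel walls and matrix, was at 73.2, 42.6, 73.5 and 127 FPKM in hippocampus and at 167, 178, 222 and 183 in hypothalamus. Its difference was 1.33 ± 0.33, and the hypothalamus libraries were the more alike, with an SD of 0.18 on the log2 scale against 0.63. Igfbp5, whose product binds matrix, was at 14.3, 31.2, 17.6 and 15.8 in hippocampus and at 72.2, 125, 85.2 and 86.0 in hypothalamus. The difference was 2.20 ± 0.29, and replicate 2 was the highest library in each tissue. Igfbp5 and Igfbp2 are neighbours in the rat genome (RefSeq, GRCr8), and replicate 2 was where Igfbp2 was lowest in hippocampus and highest in hypothalamus. Of 9 mural genes of the vessel wall, 3 were higher, none was lower and 6 were not called, with overlapping sums of 309 to 619 in hypothalamus and 139 to 383 in hippocampus. Of 11 endothelial genes 1 was higher and 3 were lower, with sums of 191 to 233 and 272 to 322. Of all genes compared, 26.7% were called in either direction. The part of vessel cells in Igfbp7 and Igfbp5 was not tested.

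Igfbp4 was the single gene of the set called lower in hypothalamus. IGFBP4 holds IGF away from its receptor until the protease pregnancy-associated plasma protein A cleaves it. Igfbp4 was at 19.95, 18.4, 25.0 and 20.9 FPKM in hippocampus and at 4.07, 5.87, 7.54 and 4.55 in hypothalamus. The lowest hippocampus library was above the highest hypothalamus library, with a difference of -1.78 ± 0.19. It was as clear without hippocampus replicates 3 and 4, at -1.68 ± 0.18. Igfbp3, the main carrier of IGF in serum, was at 3.29, 4.0, 4.13 and 6.04 in hippocampus and at 5.06, 6.42, 6.09 and 5.59 in hypothalamus. Its groups overlapped and the difference of 0.36 ± 0.16 was not called.

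**Figure D3:**
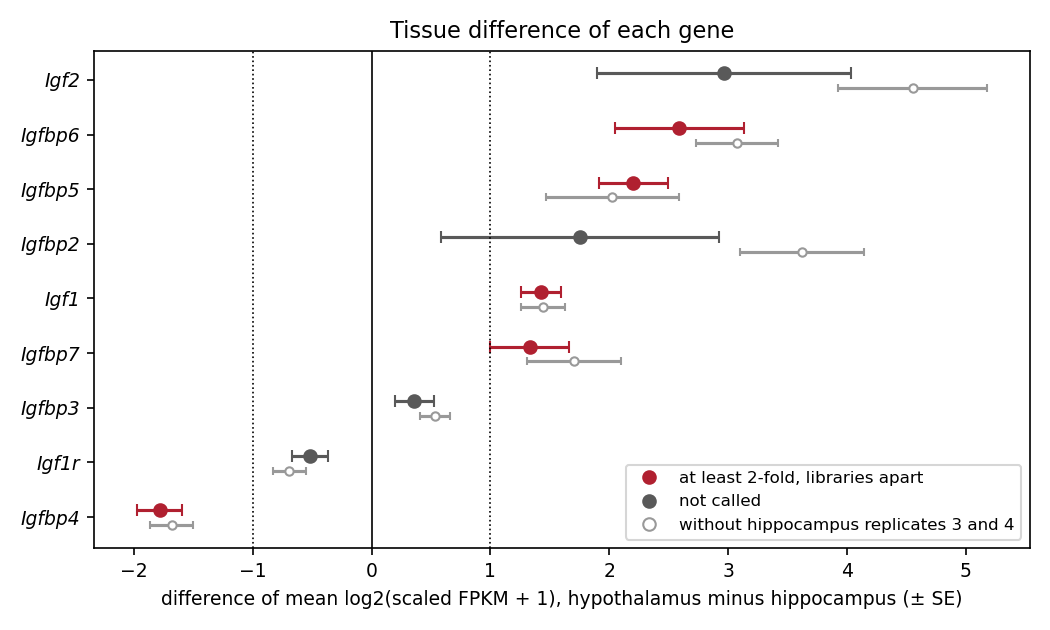
Difference of mean log2(scaled FPKM + 1) between hypothalamus and hippocampus for 9 genes, with SE over 4 libraries per tissue; red points were called and dotted lines mark a difference of 1 in each direction. Open points leave out hippocampus replicates 3 and 4: Igf2 and Igfbp2 move to 4.55 and 3.62, while Igf1 stays at 1.44.

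The receptor gene Igf1r was slightly lower in hypothalamus, by less than the fold set for a call. It was at 6.98, 8.0, 6.30 and 5.40 FPKM in hippocampus and at 3.33, 5.05, 4.86 and 4.17 in hypothalamus. The scaled libraries did not overlap, and the difference was -0.52 ± 0.15. With values as deposited they did overlap, at 5.13 in hippocampus replicate 4 and 5.40 in hypothalamus replicate 2. Igf2r was at 17.7, 14.7, 13.8 and 12.8 in hypothalamus, and no level for hippocampus is given. The ratio of Igf1 to Igf1r within a library does not depend on the scaling factor. It was 0.230 to 0.369 in hippocampus and 1.40 to 1.70 in hypothalamus, with log2 means of -1.82 ± 0.29 and 0.64 ± 0.14 (SD, n = 4). Igf1 transcripts were thus below Igf1r transcripts in all 4 hippocampus libraries and above them in all 4 of hypothalamus, within the limit of separate tables.

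Most of the other ratios hold Igf2 as a term, so they move with it in part by construction. Igf2 exceeded Igf1 by 3.69, 4.94, 34.9 and 50.7 times in hippocampus replicates 1 to 4, and by 15.0, 41.7, 30.9 and 47.3 times in hypothalamus. In hypothalamus Igf2 exceeded Igf2r by 4.18 to 26.2 times. The ratio of Igf2 to Igfbp2 did not follow Igf2 in hippocampus, at 0.440, 1.22, 0.561 and 0.473, and was 1.15 to 1.62 in hypothalamus. That of Igfbp5 to Igfbp2 was 1.06, 3.72, 0.122 and 0.0936 in hippocampus and 0.414 to 1.12 in hypothalamus. The 6 binding protein genes together exceeded the 2 ligand genes by 16.9, 8.61, 3.20 and 4.31 times in hippocampus and by 4.24, 1.59, 2.21 and 1.5 times in hypothalamus. In hippocampus the lower ratios were in replicates 3 and 4, where Igf2 was high, and the tissues overlapped.

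The order of levels was firm only in part. In hypothalamus Igf2, Igfbp7 and Igfbp2 led with means of 244 ± 130, 187 ± 23.9 and 160 ± 76.1 FPKM (SD, n = 4), and each pair of neighbours kept that order in 2 of 4 libraries. Igfbp5 at 92.0 ± 22.8, Igfbp6 at 26.1 ± 3.58, Igf2r at 14.8 ± 2.13 and Igf1 at 6.84 ± 1.47 came next, in that order among themselves in all 4. Igfbp2 was above Igfbp5 in 3 of 4 libraries. Igfbp3 at 5.79 ± 0.59, Igfbp4 at 5.50 ± 1.55 and Igf1r at 4.35 ± 0.78 came last. In hippocampus Igfbp2 at 83.6 ± 84.6 and Igfbp7 at 79.1 ± 35.1 traded places, as did Igf2 at 44.2 ± 41.7 and Igfbp4 at 21.1 ± 2.80. Igf1 at 1.89 ± 0.37 was below Igfbp3 at 4.36 ± 1.17 in all 4 libraries.

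The make-up of the binding protein transcripts changed with the library as well as the tissue. Igfbp2 made up 10.6% and 7.90% of their summed FPKM in hippocampus replicates 1 and 2, and 54.2% and 48.1% in replicates 3 and 4. In hypothalamus it made up 19.2% to 40.4%. Igfbp4 made up 5.96% to 17.4% in hippocampus and 0.88% to 1.57% in hypothalamus, with no overlap. Igfbp7 made up 27.6% to 57.6% and 30.8% to 49.8%. The summed FPKM were 127, 106, 267 and 350 in hippocampus and 336, 577, 479 and 515 in hypothalamus.

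**Figure D4:**
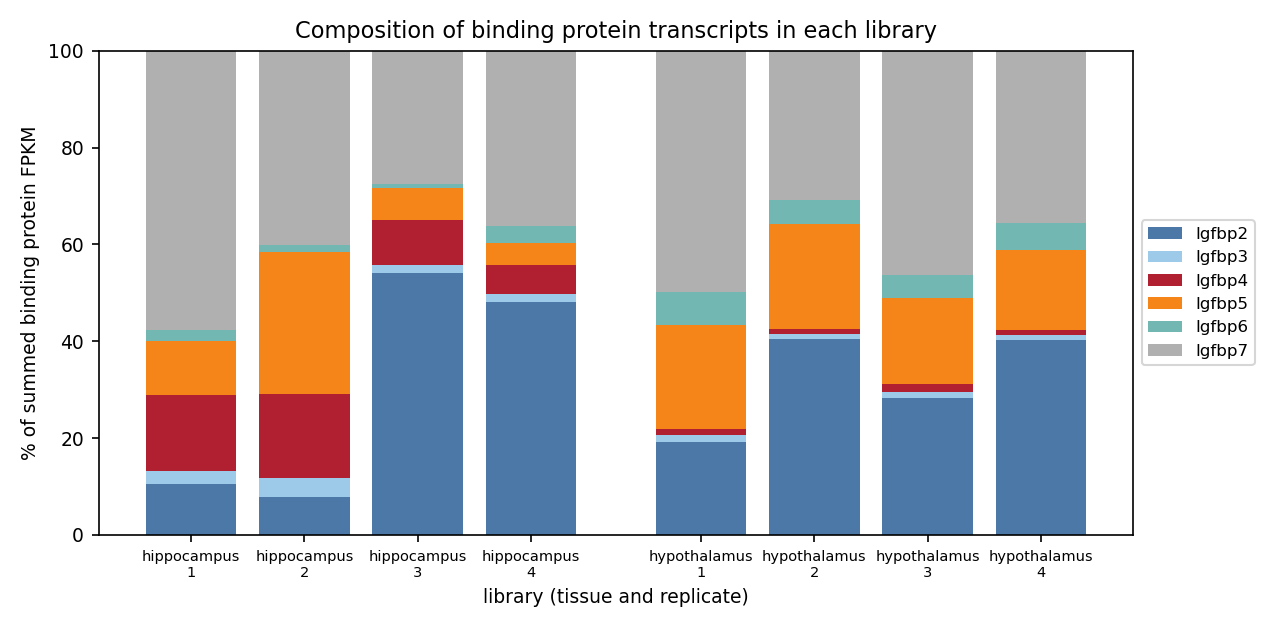
Share of each binding protein gene in their summed scaled FPKM, in per cent, for each of the 8 libraries. Igfbp4 (red) takes 5.96% to 17.4% in hippocampus and 0.88% to 1.57% in hypothalamus, and Igfbp2 (dark blue) takes 10.6% and 7.90% in hippocampus replicates 1 and 2 and 54.2% and 48.1% in replicates 3 and 4.

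For Igf2, Igfbp4 and Igfbp5, 2 loci with the same symbol were listed in 1 table and 1 locus in the other, and these were summed. In hippocampus the second Igf2 locus was at 0, 2.51, 10.6 and 32.9 FPKM in replicates 1 to 4, beside 5.91, 7.74, 70.4 and 46.7 at the main locus. The second Igfbp4 locus was at 0, 7.57, 8.76 and 9.83, beside 19.95, 10.9, 16.2 and 11.0. In hypothalamus the second Igfbp5 locus was at 0, 37.0, 25.8 and 25.1, beside 72.2, 87.8, 59.4 and 60.9. The second locus was thus at 0 in replicate 1 for all 3 genes. The same held more widely: among 1044 symbols with 2 loci in hippocampus, the weaker locus held a median of 1.24% in replicate 1 and 19.9% to 21.2% in the others, and among 831 in hypothalamus 5.71% and 17.8% to 20.5%. With the main locus alone, Igfbp4 was still lower, but by less, at -1.25 ± 0.26 in place of -1.78 ± 0.19. Igfbp5 was still higher, also by less, at 1.81 ± 0.28 in place of 2.20 ± 0.29. Igf2 was called higher at 3.28 ± 1.0, in place of 2.96 ± 1.07 and no call.

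**Figure D5:**
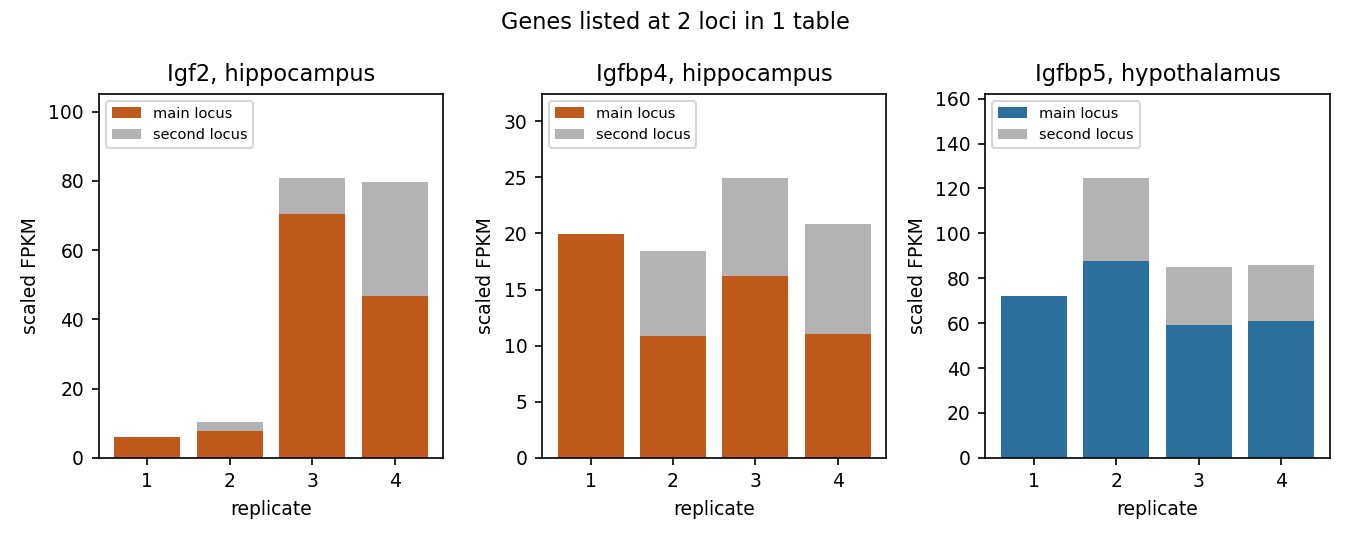
Scaled FPKM of the loci that carry the symbols Igf2 and Igfbp4 in hippocampus and Igfbp5 in hypothalamus, stacked for each replicate. The second locus (grey) is at 0 in replicate 1 of each panel and above 0 in replicates 2 to 4.

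Beyond these genes, 57 genes of the pathway were listed and 40 could be compared. Hypothalamus was called above hippocampus for 4 and below it for 3, and 33 were not called, so 17.5% were called against 26.7% of all genes. Their median difference was -0.24 against -0.04. With values as deposited the counts were 8 and 1, without hippocampus replicate 2 the lower count was 1 and without hippocampus replicate 4 it was 5. It was 6 without hippocampus replicates 3 and 4.

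Upstream of IGF1, in the growth hormone axis, 2 of 7 genes were higher and 1 was lower, against 13.3% and 13.4% of all genes compared. Ghrh, the growth hormone releasing hormone gene of the arcuate nucleus, was at 0.0773 to 0.166 FPKM in hippocampus and 12.3 to 30.4 in hypothalamus. Stat5b, a transcription factor of the growth hormone receptor, was at 7.28 to 9.65 against 17.0 to 24.4. Jak2, the kinase of that receptor, was the lower gene, at 13.9 to 18.0 against 5.35 to 10.6. Sst, encoding somatostatin, overlapped at 183 to 379 against 271 to 471.

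Insulin itself was barely listed, with Ins1 and Ins2 at no more than 0.173 and 0.789 FPKM in any library. Insr, the insulin receptor gene, was at 6.70, 10.7, 8.89 and 7.20 in hippocampus and at 3.91, 4.61, 4.26 and 3.99 in hypothalamus. The libraries did not overlap but the difference of -0.84 ± 0.14 was under the fold set. The hippocampus levels of Insr sum a main and a second locus, while hypothalamus listed no second locus. At the main locus alone hippocampus was at 6.66, 7.20, 5.98 and 4.73. Insrr, an orphan receptor of the family, was under the 1 FPKM mean for comparison, at 0.0762 to 0.217 against 0.672 to 1.77. Igfbp1, the genome neighbour of Igfbp3 and a liver gene, was at most at 0.108, and Igfals, of the serum complex, at most at 0.0554. Igfbpl1, a related gene, overlapped at 0.858 to 5.95 against 5.54 to 10.7. None of the 3 compared genes for proteases and their inhibitors was called: Htra1, a secreted serine protease, was at 64.3 ± 14.6 against 49.4 ± 4.07 and Adam9, a membrane metalloprotease, at 29.7 ± 9.41 against 17.8 ± 4.55.

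Downstream of the receptors, 1 of 7 adaptor genes was higher and none lower. Grb10, an imprinted adaptor that restrains insulin and IGF1 receptors, was at 12.1 to 18.1 FPKM in hippocampus and 38.0 to 46.8 in hypothalamus, a difference of 1.42 ± 0.14. Irs2, an insulin receptor substrate, was at 28.4 ± 4.42 against 20.6 ± 3.27 and not called. Of 18 genes of the PI3K, AKT and mTOR arm, 2 were lower in hypothalamus and none higher. For this count and that of the adaptors, the shares over all genes compared were 13.4% lower and 13.3% higher. Pdpk1, which activates AKT, was at 32.7 ± 14.0 against 14.1 ± 0.97. Rheb and Akt1, the most abundant of that list, overlapped at 89.9 ± 5.90 against 89.6 ± 37.1 and at 94.0 ± 29.4 against 80.4 ± 5.55.

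Of 3 genes of the mannose 6-phosphate sorting route, 1 was higher and none lower, against 13.3% and 13.4% of all genes compared. M6pr, encoding the smaller mannose 6-phosphate receptor, was higher in hypothalamus, at 30.4 ± 0.64 FPKM against 11.3 ± 1.13, a difference of 1.35 ± 0.07. Gnptg, a subunit of the enzyme that adds the tag, was at 38.5 ± 5.74 against 70.6 ± 12.3 and under the fold set. The IGF2 mRNA binding protein genes stayed under 1 FPKM, with Igf2bp2 at 0.428 to 0.882 in hypothalamus and at most 0.143 in hippocampus, and Igf2bp1 at most at 0.0373.

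Other cell markers gave the setting for these levels. Of 10 ependymal and tanycyte genes, 7 were higher in hypothalamus and 2 lower, with sums of 422 to 598 against 147 to 232. Of 11 astrocyte genes, 4 were higher and 1 lower, with sums of 3938 to 4636 against 3528 to 3729. Of 9 oligodendrocyte genes and of 11 microglia genes, 1 each was higher and none lower. Interneuron genes went both ways, with 2 higher and 3 lower of 10. Over all genes compared, 13.3% were higher and 13.4% lower. Whether these cells bear on the levels of the IGF genes was not tested.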

How the data were processed

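Poly-A RNA of each tissue was sequenced, as the labels' protocols describe. Values are FPKM, which the authors deposited for each locus in 1 table per tissue, with a status beside each value. Cufflinks, Cuffdiff, TopHat, TopHat2, Bowtie, Bowtie2 and the rat build rn5 appear in the submitters' processing notes. For their versions, options and any use of strand, the sources used here give nothing. All 88 status entries of the 10 genes were OK.

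Loci of a symbol were summed, and each library was divided by its factor from median-of-ratios scaling on the 15892 symbols in both tables (0.892 to 0.950 for hippocampus, 1.07 to 1.12 for hypothalamus). Comparison was limited to the 10554 genes averaging 1 FPKM or more over 8 libraries, with a pseudocount of 1, in Python 3.11.15 with pandas 2.3.3. The calculation was tested on simulated data, with noise independent between libraries and differences placed only in genes of higher level. That test does not cover low genes, genes that rise together in some libraries, or an effect of the table.

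The genes and lists (9 pathway lists, 11 marker lists) were chosen with earlier results of these data known. Named were the 10 genes, from each pathway list the 2 highest genes and the 2 called genes with the largest difference, the 2 highest of each marker list (other marker lists than choroid plexus and meninges are given as counts), and the 5 genes most like each of the 3 most variable; Jak2, Gapdh, Aldh1a2, Slc6a13, Lum and Pdgfra were named after their values were seen. The values of 1 pathway gene that the rule names are not reported here. The alternatives were other scalings, another pseudocount, other filters, other handling of loci and status, and libraries left out. Sequences come from RefSeq promoter windows of build GRCr8, where all 10 genes matched. For pairs among replicates 2, 3 and 4 of a tissue, 40.6% to 56.8% of loci under 0.05 FPKM shared 1 ratio within 0.01 (natural log), and in pairs with replicate 1, 4.17% to 6.25%. No pair of libraries held identical values above 0.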

Additional observations from a re-analysis of the deposited data

Results flagged for a closer look

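Igfbp6 in hippocampus was the 1 value, of 30 groups of 4 libraries examined, with a library far from the others. Replicate 4 stood at 12.1 scaled FPKM while the others lay between 1.53 and 2.98, and its gap to the nearest was 0.862 of the range, above Dixon's 95% critical value for 4 samples. The gap was taken on linear FPKM, and it is a smaller part of the range on the log2 scale used for spread above. Chance gives such a gap in about 5% of groups, so 1 among 30 is within what chance would give. The cause was not tested.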

How the results depend on the processing

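No difference of the 9 genes changed direction in 167 recomputed values over 18 or 19 settings a gene, and 7 genes kept their call in every setting where they had a value. The exceptions were Igf2, called higher in 6 settings (3.19 as deposited, 3.08 with upper-quartile scaling, 3.28 with the highest locus only, 3.46 without hypothalamus replicate 1, 2.80 without replicate 1 of both tissues and 4.55 without hippocampus replicates 3 and 4), and Igfbp2, called higher in the last of these. That last setting was chosen after seeing the data. The settings are not independent checks, and several could hardly change a call. Keeping only values with status OK removed no value of these genes, and the other filters left the difference of each gene they kept unchanged. Rescaling aside, leaving out a library cannot make libraries overlap that were apart. Of the 9 genes, 3 to 6 were called higher over the settings. The count of lower genes was 0 when symbols with more loci than 1 were dropped, since Igfbp4 then drops out. Among pathway genes, higher calls numbered 8 as deposited and 7 with a pseudocount of 0.1, against 4. Lower calls numbered 1 as deposited, 5 with that pseudocount, 1 to 5 when a library was left out and 6 without hippocampus replicates 3 and 4, against 3; the cause was not tested. No paired analysis was possible because no label ties a replicate number to 1 animal. The tissue comparison also comes from no test that a block could enter. The libraries share replicate numbers, but differences within numbers were not computed, and each SE treats the libraries as independent. All 95 recomputed levels and all 55 ratios moved by less than the SD between libraries, while 12 of 95 spreads moved by over 1.5 times. For levels and ratios this says little. Rescaling aside, leaving out 1 library of 4 cannot move a mean by as much as that SD. Igfbp6 in hippocampus went from 4.64 to 2.19 FPKM without replicate 4 and still counted as moved by less. Depth limits low genes such as Igf1 in hippocampus to an unknown degree, since reads per library were unknown.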
